A study of Glycine max with 16 samples.

Results

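Genes with transcripts that were abundant at 8:00 and scarce for the rest of the sampled day formed a small set in field-grown soybean (Glycine max) leaves: 14 of the 36059 genes kept, out of 56044 in the count table. They were chosen by their own measured abundances, as CPM, the count of a gene scaled to a fixed total per library, after TMM scaling, which corrects each library for its depth and composition. A gene was included when its mean over the 4 plots was at least 10 CPM at 8:00, at least 4 times the mean at each of 11:00, 14:00 and 17:00, and when the largest of the 3 later means was at most 2 times the smallest. The contrast between 8:00 and the later hours was therefore fixed by the choice, and it is described below without a test.

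Whole leaflets of the uppermost fully expanded leaf were taken from cultivar 93B15, with no genetic alteration or treatment named in the labels. The same 4 plots were sampled at 8:00, 11:00, 14:00 and 17:00 during reproductive development, and each plot was sampled on a day of its own, so that plot and day cannot be told apart. The leaflets of 1 leaf made 1 sample, which gave 16 libraries of polyadenylated RNA and 4 libraries per hour. Total counts per library ranged from 14968570 to 25691784 (median 21411331). A count of 3, which is taken here as the limit that a count of 0 allows, corresponded to 0.108 to 0.220 CPM depending on the library, and these limits cover counting error only. The 6 photosynthesis genes that could be named ranged widely in level. Glyma.13G046200, annotated as the Rubisco small chain, ranged from 4110 to 14500 CPM over the libraries, and the locus Glyma.08G082900, whose product binds chlorophyll a/b, from 1380 to 11100 CPM. A further 3 chlorophyll binding genes had medians of 193 to 413 CPM, while Glyma.02G080800, of the same annotation, stayed between 0.137 and 5.66 CPM. Whole leaflets hold many cell types, and more cells of a type cannot be told apart from more RNA per cell in any value below.

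Morning-phased gene expression in plants is set by the circadian clock, whose MYB factors of the LHY and CCA1 group peak around dawn, and by the arrival of light and warmth after the night. Transcripts present early in the day can fall because their synthesis is repressed by clock components that accumulate later, or because an acute response to light or to the night has passed. Sampling in daylight alone leaves the night out, so a gene that is high at 8:00 may have reached its peak earlier.

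Most of the narrowing came from the requirement of a 4-fold difference. At 8:00, 14334 genes reached 10 CPM, and 42 of them were at least 4 times as abundant as at each later hour. Of these 42 genes, 28 were left out because their later means differed by more than 2-fold, and 20 of the 28 declined in order from 11:00 to 14:00 to 17:00. In the 14 genes that remained, the mean at 11:00 was already within 2-fold of those at 14:00 and 17:00. The same rule applied to the other hours returned 1 gene for 11:00, 0 genes for 14:00 and 6 genes for 17:00, whereas 42 genes were low only at 8:00 by the inverse rule. These numbers describe the means of the same libraries and were not tested.

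**Figure D1:**
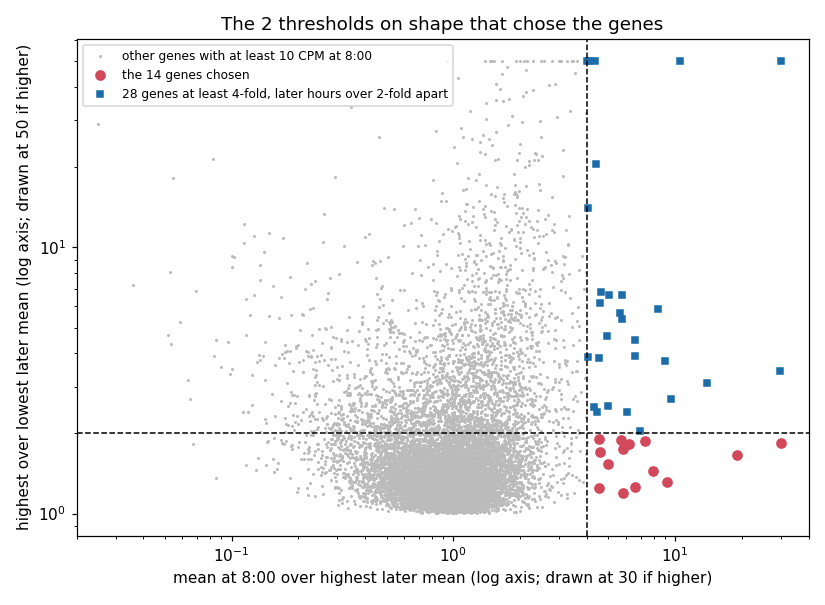
Each point is a gene with at least 10 CPM at 8:00, placed by its mean at 8:00 over its highest later mean (horizontal log axis) and by its highest over its lowest later mean (vertical log axis), with dashed lines at the thresholds of 4 and 2. The 14 genes chosen (red circles) sit below 28 genes with an equally large difference but uneven later hours (blue squares), and most genes lie to the left of both groups.

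Of the genes nearest the threshold, those just inside it were Glyma.02G001500 at 4.53 times its highest later mean, Glyma.18G078000 at 4.54 and Glyma.03G161300 at 4.60. Those just outside were Glyma.10G204200 at 3.99 (19.5 CPM at 8:00), which was matched to the response regulator ARR14 of Medicago, Glyma.05G245300 at 3.98 (25.3 CPM) and Glyma.20G248100 at 3.83 (37.9 CPM). With a ratio of 3 in place of 4 the rule returned 43 genes, 29 more.

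Names were available for 3 of the 14 loci, Glyma.20G204500 (sieve element occlusion s), Glyma.07G011900 (haloacid dehalogenase) and Glyma.08G341700 (Kunitz-type trypsin inhibitor KTI1). The other 11 are given by locus and no role is assigned to them. The names were read from the first 931 genes of an annotation list, all of which the study had marked for high variation among plots, so the named loci are a variable subset by construction and do not represent the rest.

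Glyma.17G150100 was the most abundant of the set. At 8:00 its transcript abundance was 663, 465, 261 and 656 CPM in plots 1, 2, 3 and 4, at 11:00 87.9, 59.5, 48.0 and 85.1 CPM, at 14:00 48.5, 29.5, 37.1 and 34.1 CPM, and at 17:00 66.2, 34.1, 50 and 109 CPM. All 4 morning values stood well above all 12 later values. The means were 511.3 ± 191 CPM at 8:00 (SD, n = 4), 70.1 ± 19.5 at 11:00, 37.28 ± 8.09 at 14:00 and 64.9 ± 32.3 at 17:00, and the fitted difference between 8:00 and the later hours was 3.18 on the log2 scale (approximate SE 0.17). Within every plot the gene was lower at 14:00 than at 11:00 and higher again at 17:00 than at 14:00. Within single plots, 8:00 exceeded the highest later hour 7.55, 7.81, 5.22 and 6.01 times.

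Glyma.18G263600 was the next most abundant locus with transcripts in every plot. It was at 133, 136, 87.9 and 82.6 CPM at 8:00, at 17.0, 13.8, 17.4 and 18.8 CPM at 11:00, at 10.2, 15.1, 15.5 and 12.4 CPM at 14:00, and at 9.79, 11.6, 13.7 and 25.9 CPM at 17:00. The morning values did not overlap the later ones, and the 3 later hours overlapped each other, with plot 4 at 17:00 the highest of them. The means were 109.9 ± 28.5, 16.73 ± 2.12, 13.28 ± 2.46 and 15.26 ± 7.29 CPM in order of the hours (SD, n = 4), a log2 difference of 2.90 (approximate SE 0.20).

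Glyma.02G237100 and Glyma.03G202400 came next in abundance. Glyma.02G237100 was at 38.3, 113, 31.0 and 58.7 CPM at 8:00, while its 12 later libraries lay between 2.72 and 17.7 CPM (median 6.01). Glyma.03G202400 was at 15, 44.2, 38.2 and 80.0 CPM at 8:00 and between 2.61 and 10.1 CPM later (median 5.11). For both loci the lowest morning library exceeded the highest later library, but the plots differed among themselves in the morning, by 3.63-fold and 5.34-fold from lowest to highest. Different plots led, plot 2 in the first locus and plot 4 in the second. The fitted log2 differences were 3.12 (approximate SE 0.27) for Glyma.02G237100 and 2.90 (approximate SE 0.27) for Glyma.03G202400.

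**Figure D2:**
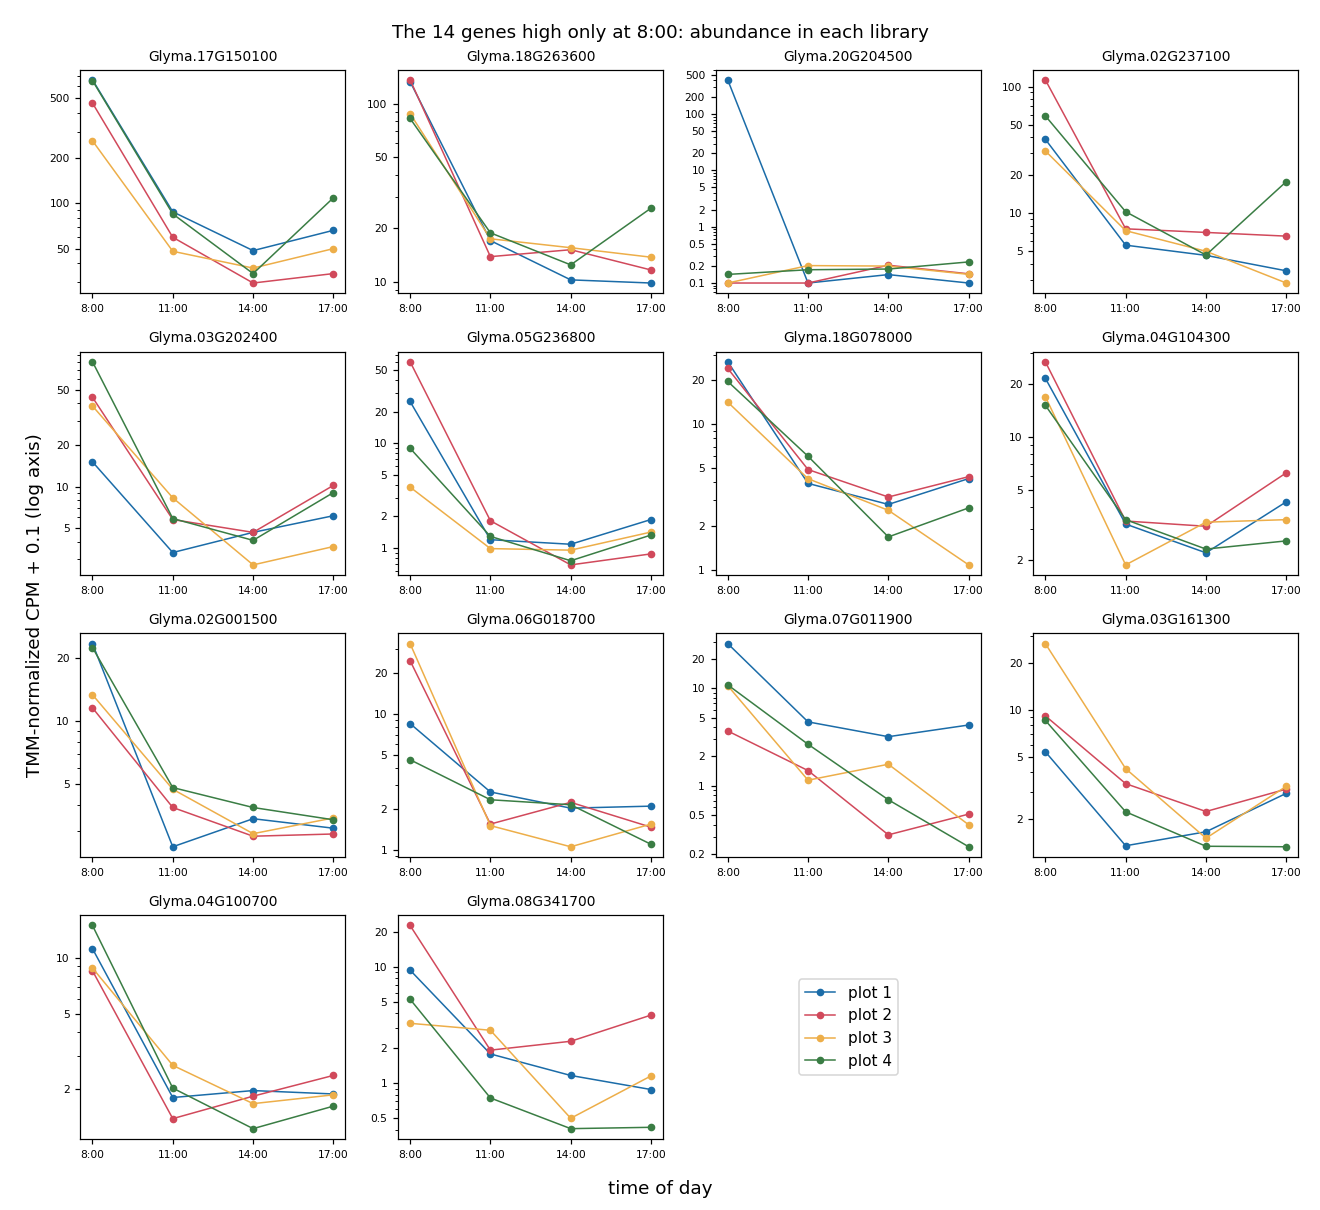
Transcript abundance of each of the 14 genes (TMM-scaled CPM plus 0.1, log axis with its own range in each panel) against the hour of sampling, with 1 line per plot. In 13 genes all 4 lines start above their later points, as in Glyma.17G150100 (261 to 663 CPM at 8:00 against 29.5 to 109 CPM later), whereas in Glyma.20G204500 only the plot 1 line does.

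A further 4 loci, of lower abundance, varied less among plots at 8:00 than most of the set. Their coefficients of variation at 8:00 (SD over mean) ran from 26.1% to 34.7%. The median over all genes with at least 10 CPM at 8:00 was lower, at 18.7%. Glyma.04G104300 was at 21.4, 26.6, 16.8 and 15 CPM at 8:00, and its later libraries lay between 1.77 and 6.14 CPM. Glyma.18G078000 was at 26.8, 24.1, 14.1 and 19.6 CPM, against 0.979 to 5.92 CPM later. Glyma.02G001500 was at 23.4, 11.5, 13.3 and 22.4 CPM, against 2.42 to 4.73 CPM later. None of these loci overlapped between morning and later libraries, and the spread of their morning values stayed near 2-fold or under it (1.78, 1.90 and 2.03-fold). Glyma.04G100700, at 11.1, 8.43, 8.72 and 14.8 CPM at 8:00 and 1.12 to 2.56 CPM later, had a spread of 1.76-fold. Its later means were the flattest of the 14, with the highest 1.19 times the lowest. Their fitted log2 differences lay between 2.36 for Glyma.02G001500 (approximate SE 0.16) and 2.69 for Glyma.18G078000 (approximate SE 0.20).

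Another 3 loci were high in the morning by amounts that depended strongly on the plot. Glyma.05G236800 was at 24.9, 59.8, 3.71 and 8.85 CPM at 8:00 and at 0.590 to 1.77 CPM later. Glyma.06G018700 was at 8.41, 24.6, 32.9 and 4.51 CPM, against 0.955 to 2.57 CPM later. Glyma.03G161300 was at 5.32, 9.11, 26.7 and 8.51 CPM, against 1.23 to 4.12 CPM later. In each locus the lowest morning value still exceeded every later library, yet the morning values ranged 16.1-fold, 7.30-fold and 5.02-fold among plots. The highest plot was plot 2 for the first locus and plot 3 for the rest, so no single plot accounted for the variation. Glyma.05G236800 had the largest mean ratio of any gene of the set with transcripts in every morning library, 19.1 times its highest later mean, with single plots at 14.1, 34.7, 2.81 and 7.18 times. Without plot 2 the ratio of its means was 8.68.

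Glyma.20G204500 entered the set through 1 library. Sieve element occlusion proteins form filaments, and in legumes forisomes, in phloem sieve elements and plug them after injury. The locus had sieve element occlusion s as its best match. At 8:00 it had 7885 counts in plot 1 (407 CPM), 0 in plots 2 and 3 and 1 in plot 4 (0.0422 CPM), and its 12 later libraries held 16 counts in all, at most 0.137 CPM. Morning and later libraries overlapped completely outside plot 1. With plot 1 left out, its mean at 8:00 was 0.148 times the highest later mean, so that the direction was reversed, and its mean of 101.8 ± 203 CPM at 8:00 (SD, n = 4) describes no level that the plots shared. The other annotated genes of the family, Glyma.02G000700 (sieve element occlusion a), Glyma.10G000500 (f) and Glyma.13G191100 (l), were at most at 2.03 CPM in any library. In the library with 407 CPM they were at 0.206, 0.465 and 0.103 CPM. All 4 genes of the whole table that reached 10 CPM in 1 library while staying under 1 CPM in every other library did so in that same library, the others being Glyma.02G205100 (11.0 CPM), Glyma.16G161000 (14.5 CPM) and Glyma.18G103500 (56.1 CPM). The source of this signal was not tested.

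Glyma.07G011900 was matched to a haloacid dehalogenase of common bean, a superfamily of hydrolases made up largely of phosphatases, some of which are induced in plants by phosphate shortage. It was at 28.5, 3.54, 10.5 and 10.7 CPM at 8:00, at 4.41, 1.33, 1.04 and 2.56 CPM at 11:00, at 3.08, 0.214, 1.56 and 0.618 CPM at 14:00, and at 4.09, 0.412, 0.298 and 0.137 CPM at 17:00. Plot 1 was the highest at every hour, and its value at 11:00 exceeded the morning value of plot 2, so that morning and later libraries overlapped across plots although 8:00 was the highest hour within each plot. The means were 13.3 ± 10.7 CPM at 8:00 (SD, n = 4), 2.337 at 11:00, 1.367 at 14:00 and 1.234 at 17:00. The fitted log2 difference was 3.15 (approximate SE 0.34).

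Another 3 loci shared the same best match and followed the same plots. Glyma.07G011800, the neighbouring locus by number, was at 16.8, 4.16, 7.72 and 12.4 CPM at 8:00, with a mean 2.98 times its highest later mean. Glyma.08G195000 was at 23.7, 11.9, 8.87 and 22.2 CPM, 2.46 times its highest later mean. Glyma.08G195100 was by far the most abundant, at 699, 191, 282 and 518 CPM, and its mean ratio of 6.63 exceeded that of Glyma.07G011900. It was not included because its later means declined from 63.7 CPM at 11:00 to 17.7 CPM at 14:00 and 16.3 CPM at 17:00. Plot 1 was the highest plot at every hour in all 4 loci. The sources used here do not state how reads shared between such similar loci were counted, so values of single loci are uncertain to that extent.

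Glyma.08G341700 was matched to KTI1, a Kunitz-type trypsin inhibitor, a class of protease inhibitors known from soybean seeds and from leaf defence against chewing insects. It was at 9.29, 22.6, 3.18 and 5.18 CPM at 8:00, at 1.69, 1.83, 2.76 and 0.650 CPM at 11:00, at 1.07, 2.20, 0.402 and 0.309 CPM at 14:00, and at 0.786, 3.76, 1.06 and 0.320 CPM at 17:00. The morning excess was large in plots 1, 2 and 4, at 5.5, 6.01 and 7.98 times the highest later hour, and nearly absent in plot 3, at 1.15 times. Plot 2 at 17:00 exceeded plot 3 at 8:00, so the hours overlapped across plots. The mean of 10.06 ± 8.73 CPM at 8:00 (SD, n = 4) was just above the required level, and the fitted log2 difference was 2.84 (approximate SE 0.33).

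The other annotated trypsin inhibitors had lower ratios, but the loci beside it by number were also highest in the morning. Glyma.08G342200, likewise matched to KTI1, was at 1.86 CPM at 8:00 and 8.66 CPM at 17:00, a ratio to the highest later mean of 0.215. Glyma.09G155500, the most abundant annotated inhibitor, had a ratio of 0.435, and Glyma.08G342100 (trypsin inhibitor p20) and Glyma.09G163900 (alpha chain) had ratios of 1.8 and 1.39. The loci on each side, which had no name, showed a stronger morning excess than these. Glyma.08G341600 was at 81.0, 114, 36.7 and 77.1 CPM at 8:00, 3.31 times its highest later mean, and Glyma.08G341800 at 22.4, 20.2, 20.9 and 45.6 CPM, 3.16 times. Whether these neighbours resemble the inhibitors in sequence was not examined. Counts of any loci with similar sequences carry the same uncertainty over shared reads as those above.

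**Figure D3:**
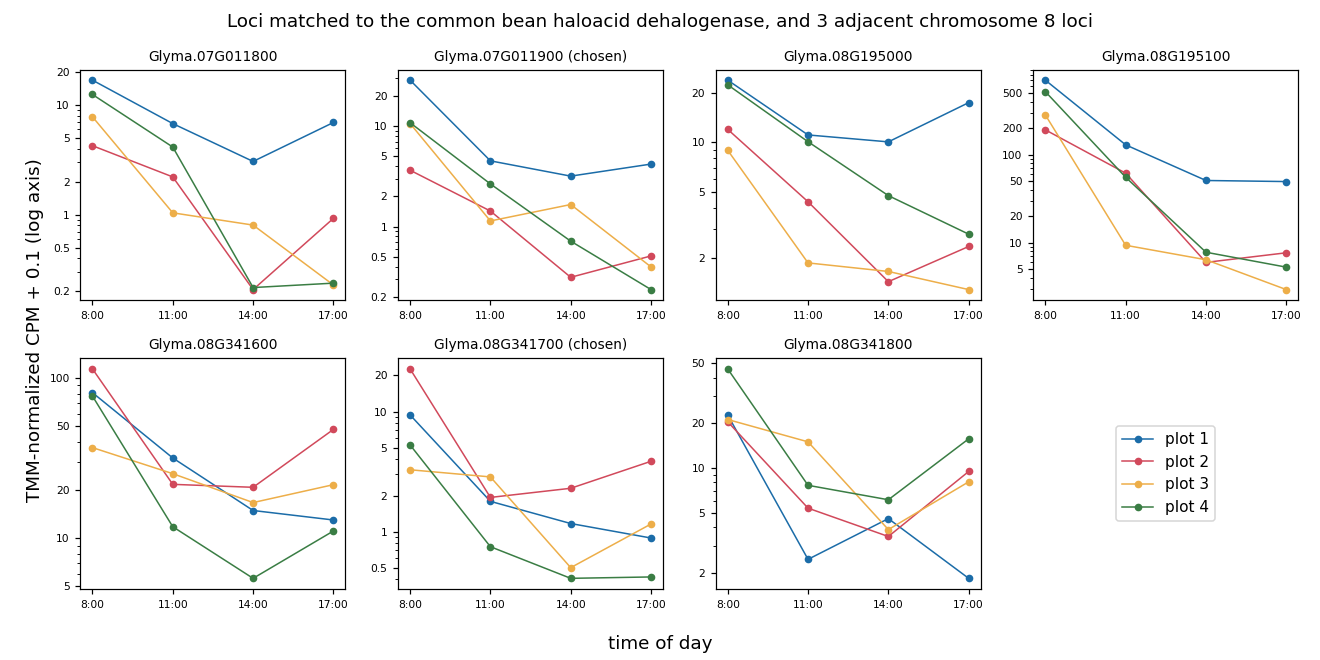
Transcript abundance (TMM-scaled CPM plus 0.1, log axis with its own range in each panel) by hour, with 1 line per plot, for the 4 loci matched to the same common bean haloacid dehalogenase (top) and for 3 consecutive loci around the trypsin inhibitor Glyma.08G341700 (bottom). In the top row plot 1 is the highest line at every hour, and in the bottom row the outer loci share a high 8:00, at 3.31 and 3.16 times their highest later mean.

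Over the 63 kept genes within 3 locus numbers of a member, 30 had their highest mean at 8:00, where 33.5% of all genes kept did. A mean at 8:00 of at least 2 times each later mean was found for 12 of these 63 neighbours, and for 3.80% of all genes kept. Only 1 neighbour reached 4 times, Glyma.06G019000, at 1.07 CPM in the morning. The 14 genes themselves were spread over 10 chromosomes by their locus numbers and the closest pair lay 36 loci apart. Neighbours were not selected on abundance, but their likeness in sequence to the member beside them was not examined, and no test was run on them.

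How far the morning excess held within single plots varied. In 13 of the 14 genes 8:00 exceeded every later hour in all 4 plots, the exception being Glyma.20G204500. The rule used these values and the share over all genes was not computed, so nothing is read from this count. A ratio of at least 4 within each of the 4 plots was reached by Glyma.17G150100 and by Glyma.04G104300, whose single plots were at 5.13, 4.34, 5.13 and 4.57 times. The lowest morning library exceeded every later library in 11 of the 14 genes. Among all genes kept, 5.48% showed such a gap in this direction, a share that is printed for scale alone because the rule used the same contrast.

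**Figure D4:**
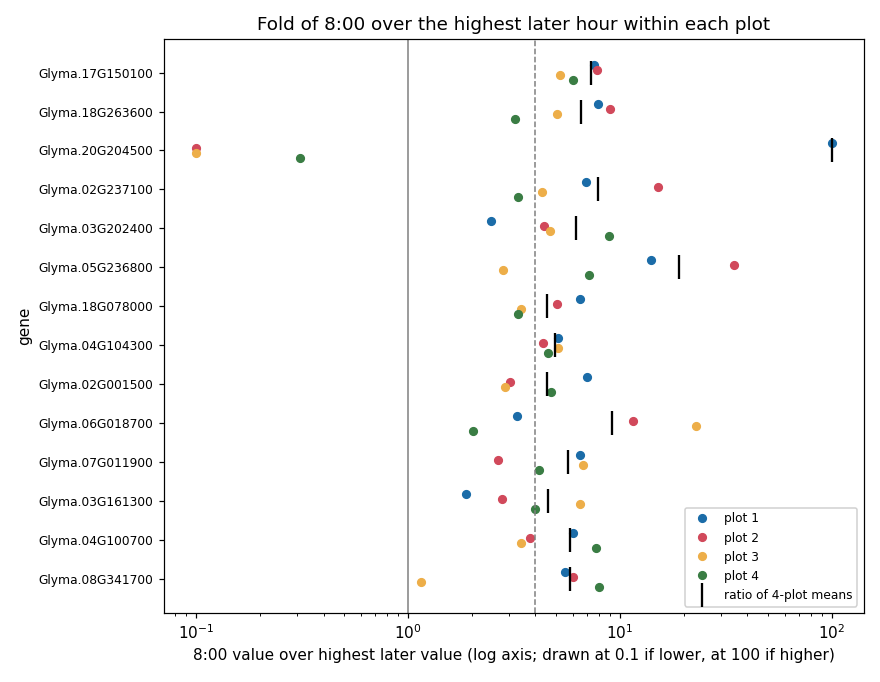
For each of the 14 genes, the value at 8:00 divided by the highest later value within each plot (coloured points, log axis, dashed line at 4 and solid line at 1) and the ratio of the means over 4 plots (black bars). Glyma.04G104300 has all 4 points between 4.34 and 5.13, Glyma.08G341700 has plot 3 at 1.15, and Glyma.20G204500 has 3 points below 1.

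The same measure was then read in plots that had no part in choosing the genes. The rule was applied to 3 plots at a time, and the genes it returned were read in the plot left out. It returned 13, 20, 10 and 18 genes with plots 1, 2, 3 and 4 left out, 61 choices in all, of which 27 (44.3%) reached 4 times their highest later value in the plot not used. At least 3 times was reached by 41 choices, at least 2 times by 50, and 58 were above 1. The median ratios in the unused plot were 5.13, 3.05, 3.86 and 3.41. Among all genes with at least 10 CPM at 8:00 in the 3 choosing plots, the medians were 0.968, 0.891, 0.973 and 0.929. Of these genes 0.594%, 0.377%, 0.582% and 0.512% reached 4 times in the plot left out. Their shares at 3 times, at 2 times and above 1 were not computed, so nothing is read from those counts. The highest of 3 single later libraries is a stricter reference than the highest of 3 means, and the 4 readings share genes and are not independent.

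**Figure D5:**
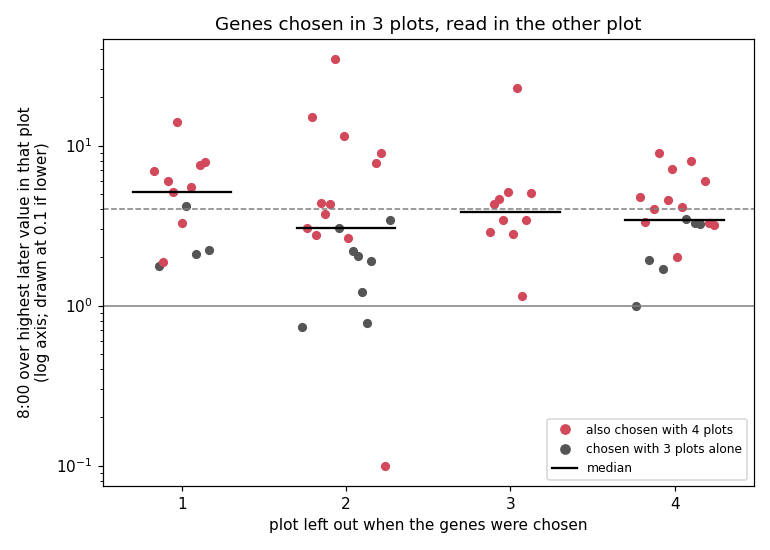
Each point is a gene chosen in 3 plots, drawn at its value at 8:00 divided by its highest later value in the remaining plot (log axis), with the plot left out on the horizontal axis, the median as a black line and a dashed line at 4. Of 61 points, 58 lie above 1 and 27 at or above 4, and the medians run from 3.05 (plot 2) to 5.13 (plot 1). All genes with at least 10 CPM at 8:00 in the choosing plots, not drawn, had medians from 0.891 (plot 2) to 0.973 (plot 3).

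In all, 5 genes were returned with every plot left out in turn, namely Glyma.18G263600, Glyma.02G237100, Glyma.05G236800, Glyma.04G104300 and Glyma.06G018700. Glyma.17G150100 was returned 3 times, and without plot 3 it failed on the evenness of its later means rather than on its ratio, which stayed between 7.01 and 7.68. Glyma.20G204500 was returned only with plot 2 left out. The ratio of means without 1 plot dropped to 3.90 for Glyma.18G078000 and 3.59 for Glyma.02G001500 (both without plot 1), to 3.24 for Glyma.03G161300 (without plot 3) and to 3.46 for Glyma.08G341700 (without plot 2). It also moved from 9.2 to 6 for Glyma.06G018700 without plot 3, and stayed above the threshold there.

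The rule did not compare plots, but 1 high plot at 8:00 can bring a gene in, so a difference between plots averaged over all hours is not fully independent of the choice. With edgeR's quasi-likelihood test in a model of time point and plot, adjusted over all genes kept (Benjamini-Hochberg, adjusted p under 0.05 and a log2 difference of at least 1 between any 2 plots), 3 of the 14 genes differed between plots, where 6.31% of all genes did. At an unadjusted p under 0.05 there were 7, where 27.9% of all genes kept passed. Glyma.07G011900 averaged 10.0, 1.38, 3.35 and 3.50 CPM in plots 1 to 4, with a largest log2 difference of 2.93 (edgeR adjusted p = 0.00709). Glyma.08G341700 averaged 3.21, 7.59, 1.85 and 1.62 CPM, with a largest log2 difference of 2.42 (edgeR adjusted p = 0.0171). The third call, Glyma.20G204500 (edgeR adjusted p = 0.00527), rested on the plot 1 library at 8:00 alone. Glyma.17G150100, at 216, 147, 99.0 and 221 CPM, missed both thresholds (largest log2 difference 0.8, edgeR adjusted p = 0.0522). The 3 genes called are also the 3 with names, which is not independent of how the annotation list was made.

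Every library of 8:00 was then left out. In the later hours alone, 2 of the 14 genes differed between plots, where 6.70% of all genes did. This count is not independent of the choice either, because plots kept part of their level across hours. Without plot 1 the rule did not return Glyma.07G011900, and without plot 2 it did not return Glyma.08G341700. Nothing is therefore read from the count. Glyma.07G011900 averaged 3.86 CPM in plot 1 against 0.654, 0.966 and 1.11 CPM in plots 2, 3 and 4 (largest log2 difference 2.85, edgeR adjusted p = 0.0339), so plot 1 remained the high plot. Glyma.08G341700 averaged 1.18, 2.60, 1.41 and 0.426 CPM (largest log2 difference 2.72, edgeR adjusted p = 0.0332), with plot 2 again the highest. DESeq2's likelihood ratio test over all hours called 4 of the 14 and 3203 of all genes. Glyma.02G237100 and Glyma.03G161300 took the place of Glyma.20G204500. With limma, Glyma.07G011900, Glyma.08G341700 and 2261 of all genes were called, where edgeR called 2275 of all genes. Without plot 1 only Glyma.08G341700 was called in the edgeR test over all hours, and without plot 2 or without plot 4 it was not.

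Over the 4 time points the same model called 14 of the 14 genes, where 33.8% of all genes kept were called. The rule had selected on this contrast, and nothing is read from the count. The call of Glyma.20G204500 (edgeR adjusted p = 0.000454), with 3 of its 4 morning libraries at 1 count or 0, was lost without plot 1 and with limma or DESeq2. The other 13 genes were called in every alternative, but the choice bears on those calls too, and they are not read as support.

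Of the 3 later means, the lowest was at 14:00 in 10 of the 14 genes, at 17:00 in 3 and at 11:00 in 1. The requirement of even later means shaped this order, since over all 42 genes with a 4-fold difference the lowest was at 17:00 in 23, at 14:00 in 17 and at 11:00 in 2, and nothing is read from it. At 14:00 the genes other than Glyma.20G204500 held between 3.17% of their morning mean (Glyma.05G236800) and 17.9% (Glyma.02G001500). At 17:00, plot 4 carried the highest later value of Glyma.17G150100, Glyma.18G263600 and Glyma.02G237100, at 109, 25.9 and 17.7 CPM. At the same hour plot 4 was the lowest plot in Glyma.04G104300 (2.46 CPM), Glyma.06G018700 (1 CPM) and Glyma.07G011900 (0.137 CPM). It was also the lowest in Glyma.03G161300 (1.23 CPM), Glyma.04G100700 (1.51 CPM) and Glyma.08G341700 (0.32 CPM), so no shift of plot 4 was shared by the set.

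The spread among plots was wide at more than 1 hour. The coefficient of variation over the 4 plots had a median of 61.0% over the 14 genes at 8:00 (25.9 to 200%), 28.8% at 11:00, 23.5% at 14:00 and 44.3% at 17:00. Over the 14334 genes with at least 10 CPM at 8:00 the medians were 18.7%, 15.2%, 13.2% and 16.2%. Those genes were not matched to the 14 in abundance at any hour, so their medians are printed for scale alone. Gene by gene, the coefficient was higher at 17:00 than at 8:00 in 7 of the 14 genes, at 14:00 in 2 and at 11:00 in 1, and the morning values are those the rule used. The later abundances of the 14 genes differed widely, and the part that counting error had in their spread was not tested. At 17:00 Glyma.17G150100, with 745 to 2394 counts, had a coefficient of 49.8%. Glyma.05G236800, with 17 to 45 counts, had 31.8%. Plots 1 and 2 were each the highest morning plot for 5 of the genes and plots 3 and 4 each for 2, while plot 3 was the lowest for 5.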

How the data were processed

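Adapters had been removed by the authors with Trimmomatic, reads mapped with TopHat to the soybean genome of cultivar Williams 82 and summed by gene in HTSeq-count, and the submitters' notes also name CASAVA 1.8.2. What was deposited is the raw count of each gene in each library, a whole number without normalization. The sources used here do not state the strand, overlap and multiple-mapping settings or the lane of each library, so overlapping, antisense and near-identical genes are uncertain. Every column matched a library by name, with 0 left unmatched. Genes with 8 or more counts in any library were kept (36059 genes), and CPM was computed with TMM factors from edgeR 4.0.16 in R 4.3.3. The log2 difference between the mean at 8:00 and the later mean had a median over genes of -0.03 under TMM. With library totals alone this median was -0.15.

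Time points and plots were each compared by the edgeR quasi-likelihood test, in a model of time point and plot, adjusted over all genes. Standard errors were back-calculated as the absolute log2 difference over the square root of F and are approximate. The replicate number is 1 plot and 1 day, which pairs the samples, and deviations from the hour means correlated within plots with a median r of 0.306 over 24 pairs (22 above 0.1) against -0.10 over 72 pairs of other plots and hours. No library was a copy of another, since the lowest chi-square between libraries of an hour was 19 per gene. Alternatives were DESeq2 1.42.0, limma 3.58.1, other scalings, filters and thresholds of the rule, and each plot left out. A mean of logarithms, a ratio required within each plot, and the plot test without 8:00 were added after seeing the data.

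The members and gene lists were chosen with earlier results of these data known. Because at most 40 genes met the rule, each was named, and other genes were named as neighbours, family members or genes near the threshold after their values were seen. Names came from the first 931 genes of the study's annotation table. The reference table (RefSeq) matched 0 locus identifiers, so no sequence is shown and the planned promoter motifs were not searched. The planned function classes held 0 of the 3 annotated genes. Annotation words for nodule and seed genes matched 0 genes, which leaves that check void.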

Additional observations from a re-analysis of the deposited data

Results flagged for a closer look

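Of 56 groups of 4 plots (14 genes at 4 hours), 5 (8.93%) held a library set apart by Dixon's test. In these its gap to its nearest neighbour took up more of the group's range than the test allows for 4 values. Chance passes that limit in about 1 of 20 groups of normally distributed values. The distribution of these CPM values was not examined, so 8.93% is not read against that rate. Glyma.20G204500 was at 407 CPM in plot 1 at 8:00, the library through which it entered the set, with the other plots at 0 to 0.0422 CPM. Glyma.07G011900 was at 4.09 CPM in plot 1 at 17:00, and the next highest value was 0.412 CPM. Glyma.02G237100 was at 6.97 CPM in plot 2 at 14:00, and the next highest value was 4.92 CPM. In the other cases a plot stood below the rest, with Glyma.04G104300 at 1.77 CPM in plot 3 at 11:00 (next 3.09 CPM) and Glyma.03G161300 at 1.23 CPM in plot 4 at 17:00 (next 2.83 CPM). The causes were not tested.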

How the results depend on the processing

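The rule returned 14 genes. It returned 43 with a ratio of 3, 7 with at least 20 CPM at 8:00, 5 with later means within 1.5 times, 2 when each plot also had to reach 4 times, and 10 to 20 with 1 plot left out. With a ratio of 5, at least 5 CPM or later means within 3 times it returned 10, 17 and 20. Other scalings, filters and summaries gave 12 to 16, though the median of the plots kept only 8 of the 14. Of the 61 choices made in 3 plots, 44.3% reached 4 times in the plot left out, 67.2% reached 3 times and 82% reached 2 times. Of all genes with at least 10 CPM at 8:00 in the choosing plots, 0.377% to 0.594% reached 4 times, and the other shares were not computed. Between plots, 3 of the 14 genes were called, and 1 to 3 with 1 plot left out, 4 with DESeq2 (3203 of all genes) and 2 with limma (2261 of all genes). Without plot 1 the count was 1. The same test called 2275 of all genes, 362 without plot 4, 1252 without plot 1, 1512 without plot 2 and 3729 with no fold threshold, which also moved the count over time points from 12200 to 19626 of all genes. Over the time points 13 to 14 of the 14 were called with 1 plot left out, and without the replicate block 14 were. The numbers pair the samples, and the block changed no call of the 14. With 1 plot left out, the ratio of Glyma.20G204500 ranged from 0.148 (without plot 1, the only library rich in its transcripts) to 1860, and that of Glyma.04G104300 was 4.07 with library totals alone. The other 82 ratios tried moved by less than the SD of the log2 ratio over the 4 plots of the gene, which is wide for uneven genes: with 1 plot left out, Glyma.05G236800 went from 19.1 to as low as 8.68, Glyma.06G018700 from 9.2 to 6 and Glyma.08G341700 from 5.8 to 3.46. Genes under about 1 CPM rest on few counts, and 4 plots on 4 days limit every spread given.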
